A study of Mus musculus with 16 samples.

Results

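The genes of cholesterol synthesis, uptake and efflux were followed in mouse dendritic cell progenitors. The set holds 32 listed genes, of which 29 had a probe set that carried their symbol alone and were measured, out of 19938 genes on the array table. Acat2, Nr1h2 and Soat1 had no probe set of their own and were left out. Idi1 and Fdft1 had 2 such probe sets, and the one with the higher mean over all arrays was used. The members are grouped by function, from the first enzymes of the route to storage and transport.

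MDPs (monocyte and dendritic progenitors) and the CDPs that follow them (common dendritic progenitors) are bone marrow stages on the way to plasmacytoid and conventional dendritic cells. Both were sorted from CD45.2+ mice aged 6 to 9 weeks, either WT or IkL/L, the latter homozygous in every cell for a hypomorphic allele of Ikzf1, the gene of the transcription factor Ikaros. They were cultured for 24 h with unfractionated CD45.1+ WT bone marrow, Flt3L-conditioned medium and fetal calf serum, in DMSO vehicle or in 5 µM GSI (Compound E, a γ-secretase inhibitor that blocks Notch activation), and the CD45.2+ cells were then sorted again for RNA. This gave 8 groups (WT or IkL/L, MDP or CDP, vehicle or GSI) of 2 arrays each, 16 in all, with 2 mice per condition.

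Cholesterol is built from acetyl-CoA through mevalonate and farnesyl diphosphate, and then through squalene and lanosterol by a series of sterol-modifying enzymes. When sterol in the endoplasmic reticulum is low, SCAP carries SREBP proteins to the Golgi, where they are cleaved and move to the nucleus to switch on most genes of the route, while INSIG proteins hold SCAP back when sterol is plentiful. When sterol is in excess, oxysterols activate the LXR receptors, which raise the exporters ABCA1 and ABCG1 and the ubiquitin ligase MYLIP, a protein that has lipoprotein receptors degraded. In myeloid cells this balance is known for its links with proliferation, lipid loading and inflammatory activation.

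Signals were log2 values, so a difference of 1 is a factor of 2, and levels were compared between groups for a gene and never between genes. Array medians lay between 4.52 and 4.65, and arrays of a group correlated at 0.983 to 0.996 over genes. The number of arrays limits the precision. Whether different groups of a genotype came from the same mice is not stated. If they did, the genotype averages rest on fewer mice than arrays, and their p-values could be too small. Ikzf1 averaged 0.40 lower in IkL/L arrays (adjusted p = 0.00666, limma), and its highest IkL/L value, 8.94, lay within the WT range of 8.90 to 9.20. Flt3, the receptor of the cytokine in the medium, was 1.91 higher in CDPs than in MDPs (adjusted p = 0.000578, limma). Array 1 of vehicle-treated WT MDPs read lower than array 2 for 15 of the 17 synthesis genes measured (median difference −0.44), and array 1 of GSI-treated WT CDPs did so for 13 of 17 (median −0.34). For several medians, values without one of these arrays are given as well.

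**Figure D1:**
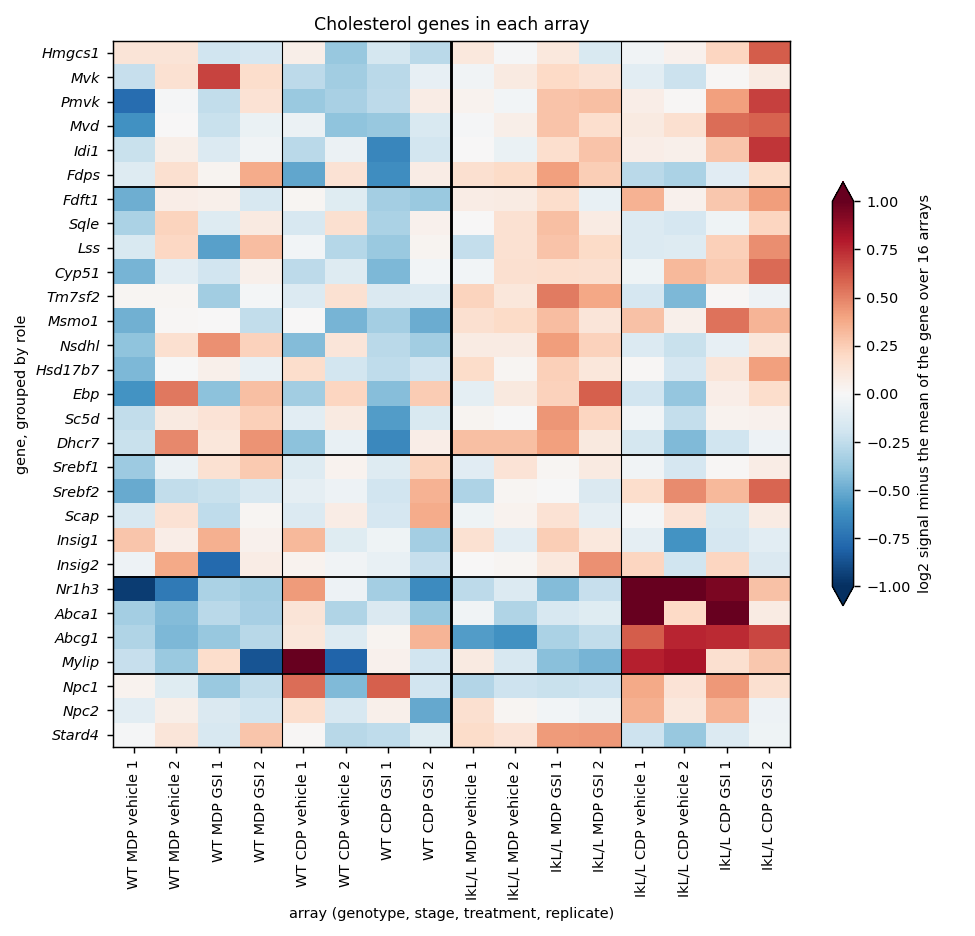
Log2 signal of each of the 29 genes (rows, grouped by role) in each of the 16 arrays (columns), as the difference from the gene's own mean over all arrays. Colours run from blue (−1) through white (0) to red (1), with values past these ends in the end colour. The GSI-treated IkL/L CDP columns are red or pale for most synthesis genes, and the LXR and efflux rows are above their own means in all 4 IkL/L CDP arrays, clearly red for Abcg1 and near white for Abca1 in array 2 of each treatment.

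On average, IkL/L progenitors carried more RNA signal than WT progenitors for 8 cholesterol genes, by 1.2 to 1.66-fold, though not in every stage and treatment. Abcg1, for one, had a lower mean in IkL/L than in WT MDPs with vehicle. Averaged over stages and treatments, 8 of 29 genes were higher in IkL/L cells and 0 were lower at an adjusted p under 0.05, against 3.85% of all genes higher and 2.15% lower. They were Pmvk, Mvd, Idi1, Fdft1, Cyp51 and Msmo1 of the synthesis route, and Nr1h3 and Abcg1 of the LXR and efflux group. The average was above 0 for 28 of 29 genes, with a median of 0.21 beside −0.02 over all genes tested, and for all 17 synthesis genes measured. Without array 1 of vehicle-treated WT MDPs these were 23 of 29, with a median of 0.16, and 14 of 17. The exception was Insig1, an inhibitor of SREBP transport, at −0.14 (adjusted p = 0.529, limma). Mvd, Msmo1 and Nr1h3 kept their call whichever of the 16 arrays was left out. The count of 8 fell to between 3 and 5 without any 1 of 13 arrays, the exceptions being array 2 of vehicle-treated WT MDPs, of GSI-treated WT MDPs and of GSI-treated WT CDPs. In such bulk samples, fewer cells of a type and less RNA per cell cannot be told apart.

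**Figure D2:**
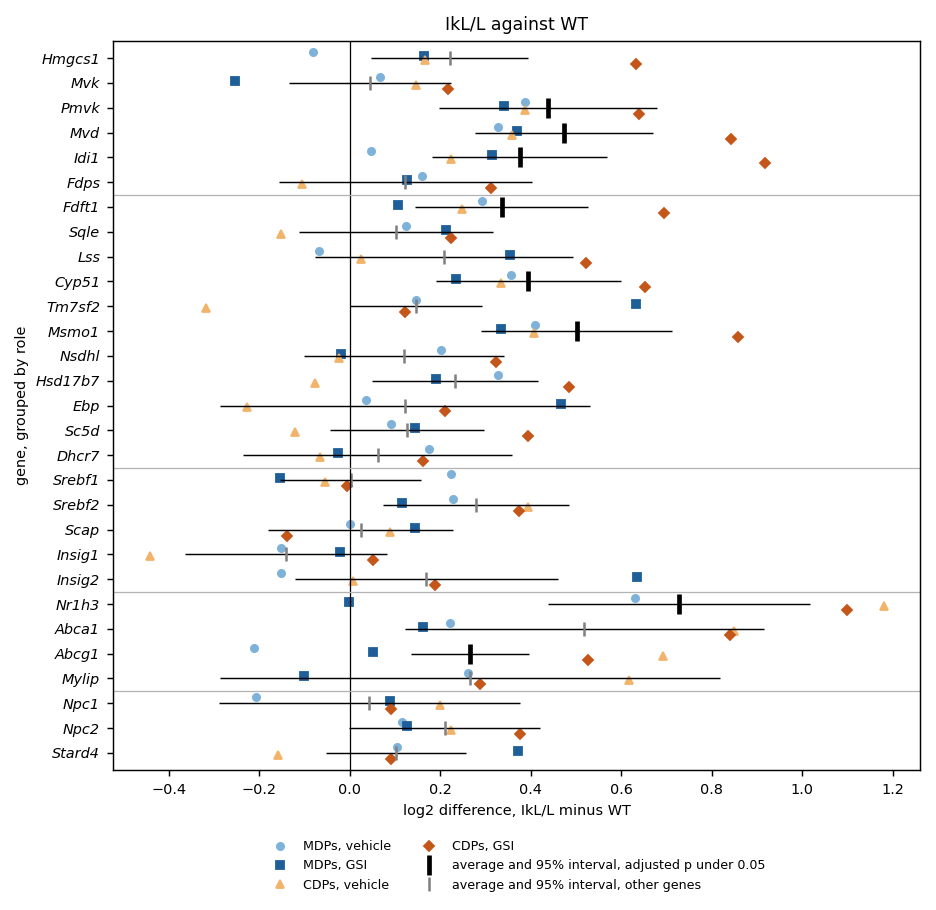
Log2 difference, IkL/L minus WT, for each of the 29 genes. Coloured points are the 4 pairs of groups, with 2 arrays against 2, and vertical ticks with horizontal lines are their average and its 95% interval. Thick ticks mark the 8 genes with an adjusted p under 0.05, all to the right of 0, and GSI-treated CDPs (brown diamonds) lie farthest right for most synthesis genes.

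The promoters of 5 synthesis genes with higher means in IkL/L cells are shown with their CCAAT boxes, the binding sites of NF-Y, a factor that acts together with SREBP at such genes. The 180 bases before the RefSeq start site (GRCm38.p6) were read for Mvd (isopentenyl diphosphate formation), Idi1 (its isomerisation), Cyp51 and Msmo1 (removal of methyl groups from lanosterol), and for Hmgcs1 (HMG-CoA formation), whose window was the only one of a measured member with a match to TCACNCCAC, part of the classical sterol regulatory element. Capitals mark CCAAT or its reverse complement ATTGG, and in Hmgcs1 also the TCACNCCAC match. None of these matches overlapped another.
Hmgcs1 (chr13:119690171-119690350, plus strand): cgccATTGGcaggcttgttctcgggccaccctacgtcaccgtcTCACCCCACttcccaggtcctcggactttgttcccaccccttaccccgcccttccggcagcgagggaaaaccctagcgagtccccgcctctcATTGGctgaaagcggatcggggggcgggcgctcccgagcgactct
Mvd (chr8:122443423-122443602, minus strand): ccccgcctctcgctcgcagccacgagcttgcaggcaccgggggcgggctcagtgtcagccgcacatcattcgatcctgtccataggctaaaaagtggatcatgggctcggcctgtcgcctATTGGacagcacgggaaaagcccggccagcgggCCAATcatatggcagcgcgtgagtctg
Idi1 (chr13:8885426-8885605, plus strand): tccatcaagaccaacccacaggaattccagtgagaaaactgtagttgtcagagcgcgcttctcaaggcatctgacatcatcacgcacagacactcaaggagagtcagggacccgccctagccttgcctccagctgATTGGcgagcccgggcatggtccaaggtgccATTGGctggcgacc
Cyp51 (chr5:4104698-4104877, minus strand): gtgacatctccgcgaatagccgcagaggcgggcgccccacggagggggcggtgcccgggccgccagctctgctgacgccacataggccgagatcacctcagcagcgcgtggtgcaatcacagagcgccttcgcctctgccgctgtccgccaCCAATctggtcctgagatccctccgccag
Msmo1 (chr8:64733579-64733758, minus strand): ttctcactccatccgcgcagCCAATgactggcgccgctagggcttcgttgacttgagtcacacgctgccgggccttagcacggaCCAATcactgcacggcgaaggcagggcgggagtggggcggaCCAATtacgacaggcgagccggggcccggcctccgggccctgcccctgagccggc
Msmo1 carried 3 CCAAT boxes in these bases, Mvd, Idi1 and Hmgcs1 carried 2 each, and Cyp51 carried 1. Of the 23 measured genes with a RefSeq promoter entry, 20 had CCAAT on either strand within 250 bases before a start site, beside 37.5% of the 27025 symbols in the table. By window the share was 65.6% of the 32 windows of these genes and 33.8% of all 32851 windows. TCACNCCAC was in 1.05% of all windows. The 3 genes with an entry and no CCAAT in it were Scap, Nr1h3 and Abca1, and no entry was found for Fdps, Fdft1, Sqle, Abcg1, Npc1 and Stard4. A match is a run of letters and does not show that a factor was bound.

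In the arm from acetyl-CoA to farnesyl diphosphate, 3 of 6 measured genes were higher in IkL/L cells and 0 lower, with a median of 0.30. The shares of all genes were 3.85% and 2.15%. Mvd, the decarboxylase that makes isopentenyl diphosphate, was 1.39-fold higher. Its log2 signal was 6.26 and 6.88 in WT MDPs with vehicle, 6.65 and 6.80 in WT MDPs with GSI, 6.81 and 6.47 in WT CDPs with vehicle, 6.49 and 6.72 in WT CDPs with GSI, 6.86 and 6.93 in IkL/L MDPs with vehicle, 7.16 and 7.04 in IkL/L MDPs with GSI, 6.96 and 7.03 in IkL/L CDPs with vehicle and 7.43 and 7.46 in IkL/L CDPs with GSI. Every IkL/L array lay above the WT arrays except for 1 WT array, the second of vehicle-treated MDPs, whose 6.88 fell just inside the IkL/L range. The average difference was 0.47 (SE 0.09, adjusted p = 0.0111, limma), with a 95% interval of 0.28 to 0.67.

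Pmvk phosphorylates mevalonate a further time, one step before Mvd. Pmvk read 5.84 and 6.59 in WT MDPs with vehicle, 6.36 and 6.75 in WT MDPs with GSI, 6.23 and 6.28 in WT CDPs with vehicle, 6.34 and 6.68 in WT CDPs with GSI, 6.64 and 6.57 in IkL/L MDPs with vehicle, 6.89 and 6.90 in IkL/L MDPs with GSI, 6.66 and 6.62 in IkL/L CDPs with vehicle and 7.01 and 7.28 in IkL/L CDPs with GSI. The lowest value of all was in array 1 of vehicle-treated WT MDPs and the highest 2 were in GSI-treated IkL/L CDPs. Pmvk averaged a difference of 0.44 (SE 0.11, adjusted p = 0.0411, limma), and kept its call without 4 of the 16 arrays in turn, with an adjusted p of up to 0.0963. Idi1, the isomerase that provides dimethylallyl diphosphate for chain building, read 8.40 and 8.68 in WT MDPs with vehicle, 8.48 and 8.58 in WT MDPs with GSI, 8.35 and 8.56 in WT CDPs with vehicle, 7.96 and 8.43 in WT CDPs with GSI, 8.62 and 8.55 in IkL/L MDPs with vehicle, 8.79 and 8.91 in IkL/L MDPs with GSI, 8.68 and 8.67 in IkL/L CDPs with vehicle and 8.90 and 9.33 in IkL/L CDPs with GSI. WT and IkL/L arrays overlapped between 8.55 and 8.68, and the IkL/L arrays with GSI stood above every WT array. Idi1 differed by 0.38 (SE 0.09, adjusted p = 0.0303, limma) on average and kept its call without 6 of 16 arrays, with an adjusted p of up to 0.0822.

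The other genes of this arm did not pass the test. Hmgcs1, the synthase that makes HMG-CoA, averaged 0.22 (SE 0.08, adjusted p = 0.15, limma), and its highest 2 values, 8.85 and 9.23, were those of GSI-treated IkL/L CDPs. Fdps, the farnesyl diphosphate synthase, averaged 0.12 (SE 0.13, adjusted p = 0.68, limma), and Mvk, the mevalonate kinase, averaged 0.04 (SE 0.08, adjusted p = 0.838, limma).

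In the arm from squalene to cholesterol, 3 of 11 genes were higher in IkL/L cells and 0 lower, with a median of 0.15. Of all genes, 3.85% were higher and 2.15% lower. Msmo1, a monooxygenase that begins the removal of methyl groups from the sterol ring, changed most among the synthesis genes, by a factor of 1.42. Msmo1 read 8.49 and 8.99 in WT MDPs with vehicle, 8.98 and 8.73 in WT MDPs with GSI, 8.97 and 8.51 in WT CDPs with vehicle, 8.64 and 8.48 in WT CDPs with GSI, 9.13 and 9.16 in IkL/L MDPs with vehicle, 9.28 and 9.09 in IkL/L MDPs with GSI, 9.27 and 9.02 in IkL/L CDPs with vehicle and 9.51 and 9.31 in IkL/L CDPs with GSI. The IkL/L and WT ranges did not overlap, at 9.02 to 9.51 and 8.48 to 8.99. The average difference was 0.50 (SE 0.10, adjusted p = 0.0118, limma), with a 95% interval of 0.29 to 0.71, and it was between 0.33 and 0.86 in the 4 pairs of groups.

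Cyp51, the lanosterol demethylase, read 8.12 and 8.48 in WT MDPs with vehicle, 8.39 and 8.63 in WT MDPs with GSI, 8.33 and 8.46 in WT CDPs with vehicle, 8.14 and 8.56 in WT CDPs with GSI, 8.56 and 8.75 in IkL/L MDPs with vehicle, 8.76 and 8.74 in IkL/L MDPs with GSI, 8.54 and 8.91 in IkL/L CDPs with vehicle and 8.85 and 9.15 in IkL/L CDPs with GSI. Its WT arrays ran from 8.12 to 8.63 and its IkL/L arrays from 8.54 to 9.15. Cyp51 differed by 0.39 (SE 0.09, adjusted p = 0.0313, limma) and kept its call without 5 of 16 arrays, with an adjusted p of up to 0.0766. Fdft1, the squalene synthase that commits farnesyl diphosphate to sterols, read 8.34 and 8.90 in WT MDPs with vehicle, 8.89 and 8.67 in WT MDPs with GSI, 8.85 and 8.71 in WT CDPs with vehicle, 8.49 and 8.46 in WT CDPs with GSI, 8.91 and 8.92 in IkL/L MDPs with vehicle, 9.01 and 8.76 in IkL/L MDPs with GSI, 9.18 and 8.88 in IkL/L CDPs with vehicle and 9.10 and 9.25 in IkL/L CDPs with GSI. The lowest value was again in array 1 of vehicle-treated WT MDPs, and both GSI-treated WT CDP arrays lay below every IkL/L array. Fdft1 differed by 0.34 (SE 0.09, adjusted p = 0.0478, limma), the least of the calls in size among the synthesis genes, and it kept its call without 2 of 16 arrays, with an adjusted p of up to 0.117.

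The other 8 genes of this arm had averages of 0.06 to 0.23 and did not pass the test. They included Hsd17b7, the ketoreductase of demethylation, at 0.23 (SE 0.08, adjusted p = 0.152, limma), and Lss, the lanosterol synthase, at 0.21 (SE 0.13, adjusted p = 0.453, limma). Tm7sf2, a sterol reductase, averaged 0.15 (SE 0.07, adjusted p = 0.275, limma) over pairs that ran from −0.32 in vehicle-treated CDPs to 0.63 in GSI-treated MDPs. Squalene epoxidase Sqle, the dehydrogenase Nsdhl, the isomerase Ebp, the desaturase Sc5d and the late reductase Dhcr7 averaged 0.10, 0.12, 0.12, 0.13 and 0.06. Among the synthesis genes Ebp varied most between arrays of a group, with 7.53 and 8.65 in vehicle-treated WT MDPs.

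Among the SREBP control genes, 0 of 5 passed the test between genotypes (median 0.02, and 1 of 5 at an unadjusted p under 0.05, beside 18.1% of all genes). That one was Srebf2, which encodes the SREBP most tied to cholesterol synthesis, at 0.28 (SE 0.09, adjusted p = 0.127, limma) in IkL/L over WT cells. Srebf1, whose SREBP acts more on fatty acid genes, averaged 0.00, the escort gene Scap 0.02 and the retention gene Insig2 0.17, with adjusted p from 0.57 to 0.993 (limma). Insig1, itself a known SREBP target, averaged −0.14 (SE 0.10, adjusted p = 0.529, limma), so the direction of its difference was not settled. Whether SREBP activity differed between genotypes was not tested.

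In the LXR and efflux group, 2 of 4 genes were higher in IkL/L cells and 0 lower, with a median of 0.39. Of all genes, 3.85% were higher and 2.15% lower. Nr1h3 encodes the sterol receptor LXRα and averaged 1.66-fold higher. It lay below the lowest array median of 4.52 in both arrays of vehicle-treated WT MDPs and in array 2 of GSI-treated WT CDPs, and whether it was above background there was not tested. Nr1h3 read 4.18 and 4.43 in WT MDPs with vehicle, 4.82 and 4.78 in WT MDPs with GSI, 5.55 and 5.08 in WT CDPs with vehicle, 4.79 and 4.50 in WT CDPs with GSI, 4.87 and 5.00 in IkL/L MDPs with vehicle, 4.70 and 4.90 in IkL/L MDPs with GSI, 6.85 and 6.14 in IkL/L CDPs with vehicle and 6.07 and 5.43 in IkL/L CDPs with GSI. The 4 IkL/L CDP arrays held 4 of the 5 highest values, while the values of both genotypes overlapped in MDPs with GSI. The average difference was 0.73 (SE 0.13, adjusted p = 0.00871, limma).

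Abcg1 exports cholesterol to lipoprotein particles. Abcg1 read 5.73 and 5.58 in WT MDPs with vehicle, 5.64 and 5.75 in WT MDPs with GSI, 6.14 and 5.90 in WT CDPs with vehicle, 6.05 and 6.36 in WT CDPs with GSI, 5.47 and 5.42 in IkL/L MDPs with vehicle, 5.71 and 5.78 in IkL/L MDPs with GSI, 6.63 and 6.79 in IkL/L CDPs with vehicle and 6.77 and 6.69 in IkL/L CDPs with GSI. The 4 IkL/L CDP arrays were the highest of all, and the 2 arrays of vehicle-treated IkL/L MDPs were the lowest. Abcg1 averaged 0.26 (SE 0.06, adjusted p = 0.0253, limma) between genotypes. Abca1, the other exporter of the group, had a larger average, 0.52 (SE 0.18, adjusted p = 0.14, limma), without passing the test, and the 2 arrays of IkL/L CDPs read 5.98 and 4.85 with vehicle and 5.73 and 4.74 with GSI. The Abca1 mean over the WT arrays, 4.40, lay below the lowest array median of 4.52, and whether it was above background there was not tested. Mylip averaged 0.27 (SE 0.25, adjusted p = 0.647, limma) and also varied widely, from 4.80 to 6.76 within vehicle-treated WT CDPs.

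The storage and transport genes did not pass the test between genotypes (0 of 3, and 0 at an unadjusted p under 0.05). Npc1 and Npc2, which release cholesterol from lysosomes, averaged 0.04 and 0.21, and Stard4, a cytosolic sterol carrier, averaged 0.10, with adjusted p from 0.278 to 0.92 (limma).

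**Figure D3:**
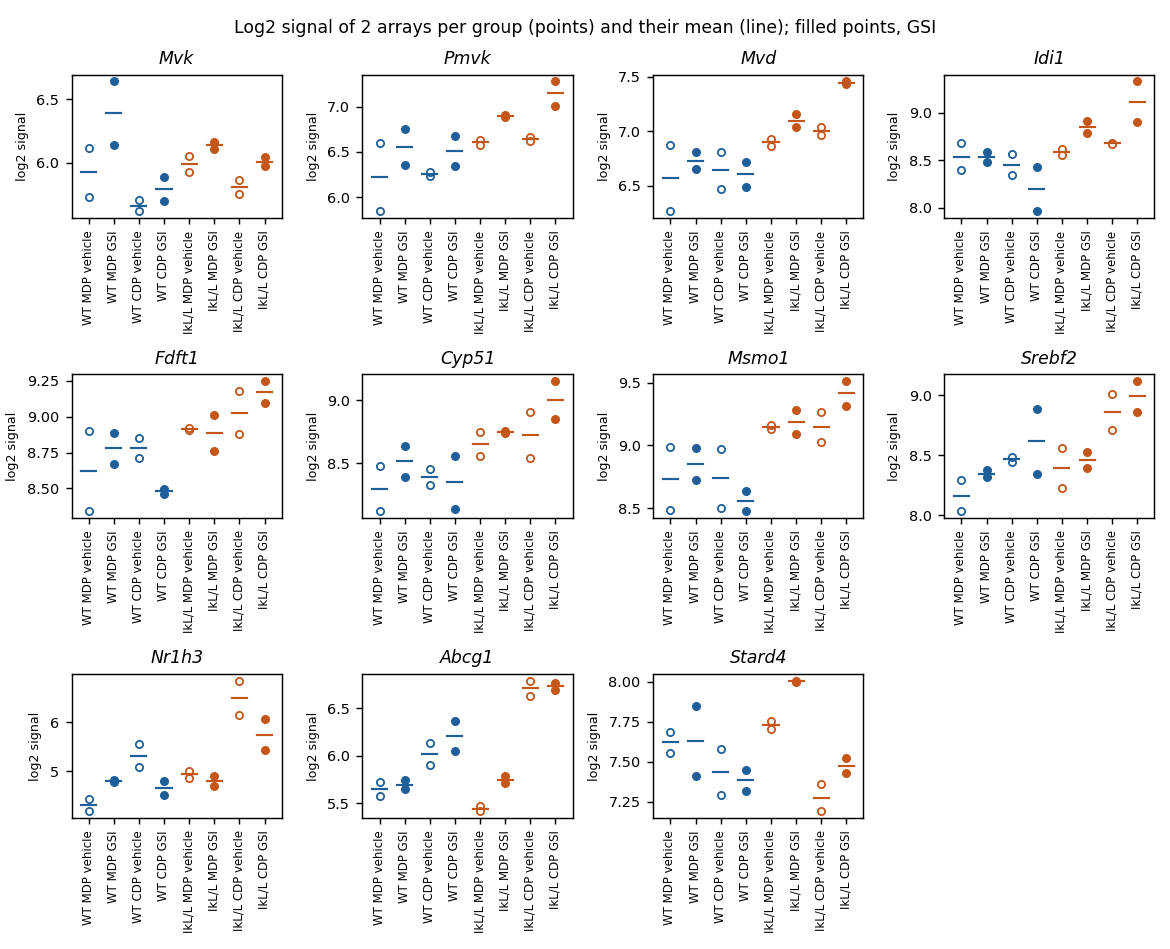
Log2 signal of the 11 genes that passed the test in the genotype or the stage average, in each of 8 groups. Points are the 2 arrays of a group (open, vehicle, and filled, GSI), short lines their mean, blue WT and brown IkL/L. The vertical scale differs between genes and does not start at 0. Msmo1 shows no overlap of WT and IkL/L points, and Abcg1 is highest in the IkL/L CDP groups.

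The genotype difference was then taken within each stage and treatment. These 4 comparisons share no arrays. In GSI-treated CDPs, 4 of 29 genes were higher in IkL/L cells and 0 lower, beside 1.35% and 0.792% of all genes, and 12 of 29 passed at an unadjusted p under 0.05, beside 10.5%. Idi1 was 1.89-fold higher with a difference of 0.92 (SE 0.17, adjusted p = 0.0235, limma), Msmo1 1.81-fold with 0.86 (SE 0.19, adjusted p = 0.0485, limma) and Mvd 1.79-fold with 0.84 (SE 0.18, adjusted p = 0.0389, limma). Abcg1 was at 0.53 (SE 0.12, adjusted p = 0.0499, limma). The median over the 17 synthesis genes was 0.49 there, all 17 being above 0, and without array 1 of GSI-treated WT CDPs it was 0.36 with 14 above 0. The count of 4 was between 0 and 2 without any 1 of 12 arrays, and it stayed at 4 or 5 without either array of vehicle-treated WT MDPs or of vehicle-treated WT CDPs. It was 0 without array 1 of GSI-treated WT CDPs or array 2 of GSI-treated IkL/L CDPs. It was also 0 in a fit of these 4 arrays alone.

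In vehicle-treated CDPs the synthesis genes stood differently, with 9 of 17 above 0 and a median of 0.02. Abcg1, higher by 0.69 (SE 0.12, adjusted p = 0.0201, limma), was the gene that passed of the 29, beside 1.18% of all genes in either direction. It lost its call when array 2 of the vehicle-treated WT CDPs or either IkL/L array was left out, with an adjusted p of up to 0.186 (limma), and 0 genes passed in a fit of these 4 arrays alone. Nr1h3 had a mean 2.27-fold higher, by 1.18 (SE 0.26, adjusted p = 0.0675, limma) but did not pass the test, its lowest IkL/L array, 6.14, lying above its highest WT array, 5.55. Tm7sf2 was at −0.32 (SE 0.13, adjusted p = 0.468, limma).

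In MDPs 0 of 29 genes passed the test with vehicle or with GSI, beside 0.105% and 0.115% of all genes. At an unadjusted p under 0.05 there were 1 and 3 genes, beside 4.41% and 6.81%. With vehicle it was Nr1h3, at 0.63 (SE 0.26, adjusted p = 1, limma), and with GSI they were Tm7sf2 at 0.63 (SE 0.13, adjusted p = 0.181, limma), Insig2 at 0.63 (SE 0.26, adjusted p = 0.69, limma) and Stard4 at 0.37 (SE 0.14, adjusted p = 0.64, limma). The medians of the 29 genes were 0.15 and 0.14. With vehicle the median was 0.01 without array 1 of WT MDPs and 0.26 without array 2. With GSI it was 0.10 without array 1 of IkL/L MDPs and 0.24 without array 2. Over the synthesis genes with vehicle, 8 were above 0 and 9 below without array 1 of WT MDPs, with a median of −0.07. Without array 2 of WT MDPs 16 were above 0 and 1 below, with a median of 0.48. In CDPs the medians of the 29 genes were 0.15 with vehicle and 0.37 with GSI. The latter was 0.34 without array 2 of GSI-treated IkL/L CDPs and 0.55 without array 2 of GSI-treated WT CDPs. The difference between the medians with vehicle and with GSI was not tested.

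Whether the genotype difference itself differed between stages was tested directly. With vehicle, 0 of 29 genes passed, beside 0.105% of all genes, and 2 did at an unadjusted p under 0.05, beside 3.47%. These were Abcg1, at 0.90 (SE 0.17, adjusted p = 0.156, limma), and Tm7sf2, at −0.46 (SE 0.19, adjusted p = 1, limma). When vehicle and GSI were averaged, a comparison chosen after seeing the data, Abcg1 passed with a difference of 0.69 (SE 0.12, adjusted p = 0.0295, limma), beside 0.562% of all genes. Nr1h3 was larger in size there with a wider error, at 0.83 (SE 0.26, adjusted p = 0.405, limma). Abcg1 lost this call without any 1 of 13 arrays, with an adjusted p of up to 0.105.

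Between stages, CDPs carried more signal of Nr1h3, Abcg1 and Srebf2 than MDPs, and less of Stard4 and Mvk. Averaged over genotypes and treatments, 3 of 29 genes were higher in CDPs, beside 4.72% of all genes, and 2 were lower, beside 4.01%. The median of the 29 genes was −0.02, as over all genes tested. Abcg1, shown array by array above, was 1.72-fold higher in CDPs, by 0.78 (SE 0.06, adjusted p = 4.02e-05, limma), and its CDP range of 5.90 to 6.79 lay wholly above its MDP range of 5.42 to 5.78. Nr1h3 was 1.8-fold higher, by 0.85 (SE 0.13, adjusted p = 0.00293, limma), with MDP values of 4.18 to 5.00 and CDP values of 4.50 to 6.85. Abca1 and Mylip averaged 0.50 and 0.56 with adjusted p of 0.134 and 0.241 (limma), so that 4 of 4 genes of the group had a higher mean in CDPs.

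Srebf2 was the SREBP control gene that differed between stages. Srebf2 read 8.03 and 8.30 in WT MDPs with vehicle, 8.32 and 8.38 in WT MDPs with GSI, 8.45 and 8.49 in WT CDPs with vehicle, 8.35 and 8.88 in WT CDPs with GSI, 8.23 and 8.56 in IkL/L MDPs with vehicle, 8.53 and 8.39 in IkL/L MDPs with GSI, 8.71 and 9.01 in IkL/L CDPs with vehicle and 8.86 and 9.12 in IkL/L CDPs with GSI. In IkL/L cells every CDP array was above every MDP array, and in WT cells the lowest CDP value, 8.35, lay between MDP values. Srebf2 averaged 0.39 (SE 0.09, adjusted p = 0.0263, limma) and kept its call without 8 of 16 arrays, with an adjusted p of up to 0.0678. Insig1 averaged −0.28 (SE 0.10, adjusted p = 0.128, limma) in the other direction.

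Stard4 was lower in CDPs. Stard4 read 7.56 and 7.69 in WT MDPs with vehicle, 7.41 and 7.85 in WT MDPs with GSI, 7.58 and 7.29 in WT CDPs with vehicle, 7.32 and 7.45 in WT CDPs with GSI, 7.75 and 7.70 in IkL/L MDPs with vehicle, 8.0 and 8.0 in IkL/L MDPs with GSI, 7.36 and 7.19 in IkL/L CDPs with vehicle and 7.43 and 7.52 in IkL/L CDPs with GSI. In IkL/L cells the lowest MDP array was 7.70 and the highest CDP array 7.52, whereas the WT ranges overlapped. Stard4 averaged −0.35 (SE 0.07, adjusted p = 0.0115, limma), and the call was kept whichever array was left out. Mvk read 5.73 and 6.12 in WT MDPs with vehicle, 6.64 and 6.14 in WT MDPs with GSI, 5.71 and 5.62 in WT CDPs with vehicle, 5.70 and 5.89 in WT CDPs with GSI, 5.93 and 6.05 in IkL/L MDPs with vehicle, 6.16 and 6.11 in IkL/L MDPs with GSI, 5.86 and 5.75 in IkL/L CDPs with vehicle and 5.98 and 6.04 in IkL/L CDPs with GSI. Array 1 of GSI-treated WT MDPs stood above all others at 6.64, and the average was −0.29 (SE 0.08, adjusted p = 0.0498, limma), a call that was kept without 2 of the 16 arrays in turn, with an adjusted p of up to 0.115.

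Of the other 16 synthesis genes, 5 averaged above 0 and 11 below, and 5 of those below passed at an unadjusted p under 0.05, beside 10.8% of all genes that were lower at that threshold. These were Dhcr7 at −0.48 (SE 0.13, adjusted p = 0.0513, limma), Fdps at −0.36 (SE 0.13, adjusted p = 0.126, limma), Nsdhl at −0.31 (SE 0.10, adjusted p = 0.0894, limma), Tm7sf2 at −0.23 (SE 0.07, adjusted p = 0.0603, limma) and Sc5d at −0.23 (SE 0.08, adjusted p = 0.107, limma). Dhcr7, Nsdhl, Tm7sf2 and Sc5d act on the sterol ring, and Fdps acts earlier. Cyp51, Msmo1, Hsd17b7 and Ebp, which also act on the ring, were not among the 5. Npc1 averaged 0.41 (SE 0.15, adjusted p = 0.143, limma), and its WT CDP arrays read 8.86 and 7.86 with vehicle and 8.90 and 8.12 with GSI.

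**Figure D4:**
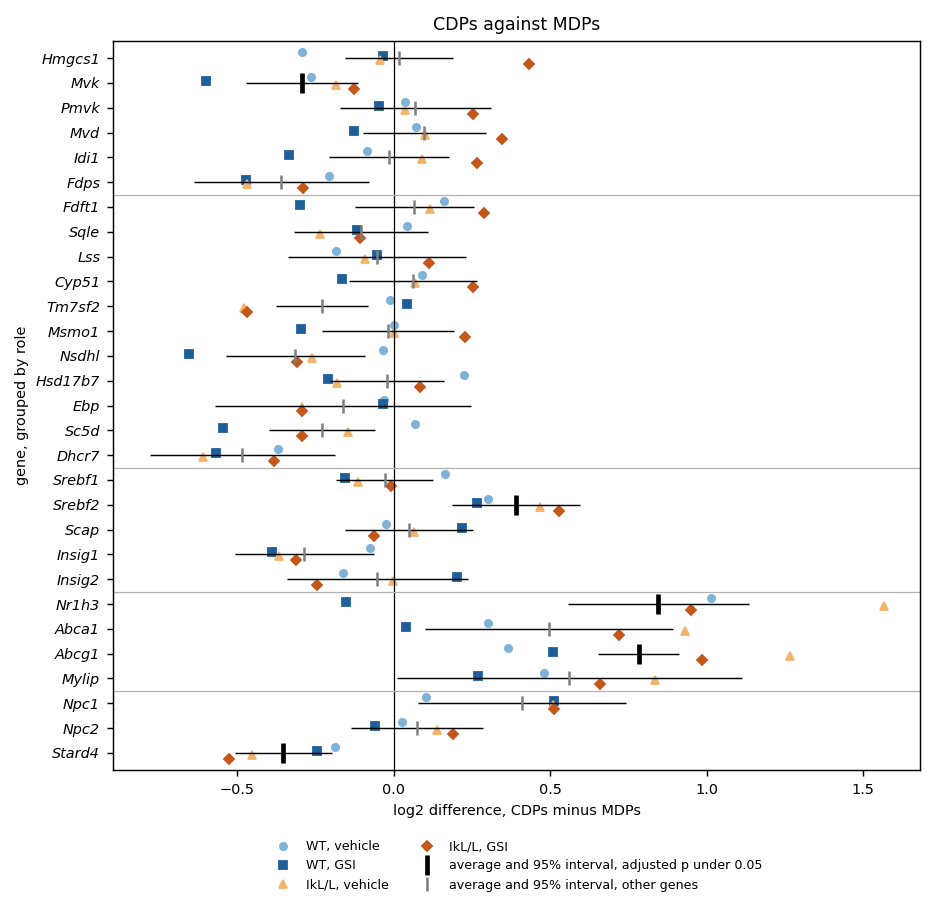
Log2 difference, CDPs minus MDPs, for each of the 29 genes. Coloured points are the 4 combinations of genotype and treatment, with 2 arrays against 2, and ticks with lines are their average and its 95% interval. Thick ticks mark the 5 genes with an adjusted p under 0.05, Nr1h3, Abcg1 and Srebf2 to the right of 0 and Stard4 and Mvk to the left.

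Within IkL/L cells, 2 of the 4 LXR and efflux genes were higher in CDPs with vehicle and 1 with GSI. With vehicle, Nr1h3 was 2.96-fold higher in CDPs, by 1.57 (SE 0.26, adjusted p = 0.0143, limma), and Abcg1 2.41-fold, by 1.27 (SE 0.12, adjusted p = 0.000514, limma), beside 1.71% of all genes. Nr1h3 did not pass without array 1 or array 2 of vehicle-treated IkL/L MDPs, or without array 1 of vehicle-treated IkL/L CDPs, which left a count of 1. With GSI, Abcg1 was 1.98-fold higher, by 0.99 (SE 0.12, adjusted p = 0.00176, limma), beside 2.42% of all genes, and Nr1h3 was at 0.95 (SE 0.26, adjusted p = 0.11, limma). Abca1 was at 0.93 (SE 0.36, adjusted p = 0.34, limma) with vehicle and 0.72 (SE 0.36, adjusted p = 0.503, limma) with GSI, and Mylip at 0.84 (SE 0.50, adjusted p = 0.658, limma) and 0.66 (SE 0.50, adjusted p = 0.762, limma). Within WT cells 0 of 29 genes passed with vehicle or with GSI, beside 0.0953% and 0.176%. At an unadjusted p under 0.05 there were 2 and 4 genes, beside 5.38% and 7.97%. Nr1h3 was at 1.02 (SE 0.26, adjusted p = 0.367, limma) and Abcg1 at 0.37 (SE 0.12, adjusted p = 0.62, limma) with vehicle, and with GSI Abcg1 was at 0.51 (SE 0.12, adjusted p = 0.162, limma), with Nsdhl, Mvk and Sc5d at −0.65, −0.60 and −0.54.

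GSI moved none of the 29 genes past the threshold. Averaged over the 4 populations, 0 of 29 passed, beside 0.306% of all genes, and 4 did at an unadjusted p under 0.05, beside 11.4%. These were Pmvk at 0.35 (SE 0.11, adjusted p = 0.25, limma), Mvk at 0.24 (SE 0.08, adjusted p = 0.298, limma), Srebf1 at 0.18 (SE 0.07, adjusted p = 0.381, limma) and Abcg1 at 0.14 (SE 0.06, adjusted p = 0.407, limma), all higher with GSI. The median of the 29 genes was 0.10 beside 0.01 over all genes. The 95% interval of Msmo1 ran from −0.15 to 0.27 and that of Nr1h3 from −0.55 to 0.02.

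By population, 0 genes passed in WT MDPs, WT CDPs, IkL/L MDPs and IkL/L CDPs, beside 0%, 0.01%, 0% and 0.00502% of all genes. At an unadjusted p under 0.05 there were 3, 2, 1 and 5 of the 29, beside 6.77%, 4.1%, 2.62% and 3.5%. In WT MDPs these were Mvk, Nsdhl and Srebf1, at 0.46, 0.46 and 0.42, with adjusted p from 0.677 to 0.718 (limma). In WT CDPs they were Sc5d at −0.35 and Nr1h3 at −0.67, and in IkL/L MDPs Abcg1 at 0.30. In IkL/L CDPs the 5 were Pmvk at 0.51, Mvd at 0.45, Idi1 at 0.44, Hmgcs1 at 0.41 and Nr1h3 at −0.75, each with an adjusted p of 1 (limma, to 3 digits).

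The synthesis genes had higher means with GSI in IkL/L CDPs, and their sign in WT CDPs depended on single arrays. In IkL/L CDPs all 17 had a higher mean with GSI, with a median of 0.29 and a range of 0.15 to 0.51, and in WT CDPs 15 of 17 had a lower mean, with a median of −0.09. Without array 1 of GSI-treated WT CDPs 8 of 17 were lower there, with a median of 0.04. Without array 2 of vehicle-treated WT CDPs 9 of 17 were lower, with a median of −0.007. Such counts, here and above, come from genes read on the same arrays, which can shift together, so they are not separate tests. The mean over the 17 genes was 7.59 and 7.68 in vehicle-treated IkL/L CDPs and 7.86 and 8.03 with GSI, while in WT CDPs it was 7.52 and 7.60 with vehicle and 7.33 and 7.60 with GSI. The difference of the GSI effect between genotypes in CDPs, a comparison chosen after seeing the data, was above 0 for 17 of 17 genes with a median of 0.44. Without array 1 of GSI-treated WT CDPs it was above 0 for 15 of 17 with a median of 0.31. This difference passed for 0 of 29 genes, beside 0% of all genes, and for 4 at an unadjusted p under 0.05 (Idi1, Hsd17b7, Sc5d and Tm7sf2), beside 1.43%. Idi1 was the largest, at 0.69 (SE 0.25, adjusted p = 1, limma). Averaged over both stages, the difference was above 0 for 16 of 17 synthesis genes with a median of 0.21 (12 of 17 and 0.10 without array 2 of vehicle-treated WT MDPs), again with 0 of 29 past the threshold, beside 0% of all genes, and 3 at an unadjusted p under 0.05 (Hmgcs1, Idi1 and Tm7sf2), beside 1.6%. These comparisons use the same GSI-treated CDP arrays as the genotype difference with GSI given above, and the WT CDP array at 7.33 is array 1, the array without which 0 genes passed there.

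**Figure D5:**
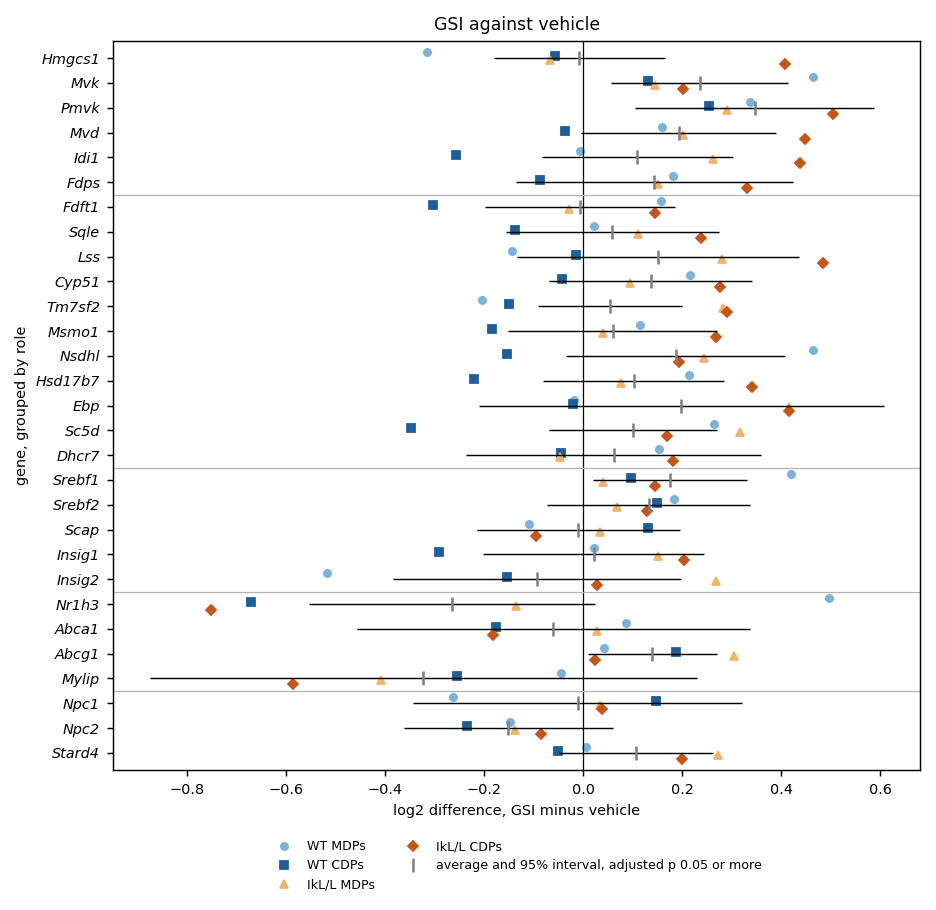
Log2 difference, GSI minus vehicle, for each of the 29 genes. Coloured points are the 4 populations, with 2 arrays against 2, and grey ticks with lines are their average and its 95% interval. None of the 29 averages had an adjusted p under 0.05, and the IkL/L CDP points (brown diamonds) of all 17 synthesis genes lie to the right of 0.

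Nr1h3 had the opposite sign from the synthesis genes under GSI in IkL/L CDPs. It read 6.85 and 6.14 with vehicle and 6.07 and 5.43 with GSI, and in WT CDPs it read 5.55 and 5.08 with vehicle and 4.79 and 4.50 with GSI. The ranges overlapped in neither WT CDPs nor IkL/L CDPs, and the difference did not pass the test in either (−0.67 and −0.75, adjusted p = 0.999 and 1, limma). Abcg1, a known LXR target, was at 0.19 in WT CDPs and 0.02 in IkL/L CDPs. Abca1 and Mylip, which LXR also raises, averaged −0.06 and −0.32 with GSI over all populations (adjusted p = 0.923 and 0.666, limma). The mean of the LXR and efflux genes, Nr1h3 among them, was 6.05 to 6.46 in vehicle-treated IkL/L CDPs and 5.68 to 6.08 with GSI. Whether LXR activity changed with GSI was not tested.

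Other genes near the route were taken as listed groups. At the same threshold, 3.85% of all genes were higher and 2.15% lower in IkL/L cells. In CDPs 4.72% were higher and 4.01% lower than in MDPs, and 0.306% changed with GSI. Of 24 further sterol genes measured, 3 were higher in IkL/L cells and 0 lower, with a median of 0.03. They were Stard5, a sterol-binding protein of macrophages, at 0.71 (adjusted p = 0.00497, limma), Nceh1, which hydrolyses cholesteryl ester, at 0.46 (adjusted p = 0.0466, limma), and Cyp27a1, which makes an oxysterol that activates LXR, at 0.34 (adjusted p = 0.0127, limma). Cyp27a1 was also the gene of this list that changed with GSI, by −0.41 (adjusted p = 0.0421, limma). Between stages, 3 were higher in CDPs, among them Lrp8 at 0.45 and Gramd1b at 0.40, and 3 were lower, among them Lbr, a sterol reductase of the nuclear envelope, at −0.63 and Scarb1, a lipoprotein receptor, at −0.48, with adjusted p from 0.00211 to 0.0151 (limma). Of 13 genes of fatty acid synthesis, which share SREBP control, 0 were higher in IkL/L cells and 1 was lower, with a median of 0.02. It was Elovl6, a fatty acid elongase, at −0.64 between genotypes and −0.72 between stages (adjusted p = 0.0185 and 0.00768, limma). With GSI 0 of 13 passed, and 0 did at an unadjusted p under 0.05, beside 0.306% and 11.4% of all genes.

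Markers of other cell types and states moved with the genotype and the stage, beside the cholesterol genes. Over all genes, the shares called were 3.85% higher and 2.15% lower in IkL/L cells. They were 4.72% higher and 4.01% lower in CDPs, and 0.306% in either direction with GSI. Of 12 genes of mature dendritic cells, 11 were higher in IkL/L cells and 11 in CDPs, with medians of 1.48 and 2.03, among them Ccl22, Fscn1 and Ccr7. Their mean log2 signal was 8.06 and 8.53 in vehicle-treated IkL/L CDPs and 8.26 and 8.72 with GSI, beside 5.33 to 5.78 in WT CDPs, 5.05 to 5.51 in IkL/L MDPs and 4.80 to 4.85 in WT MDPs. Of 13 neutrophil genes, 8 were higher in IkL/L cells and 0 lower, among them Ltf and Camp, with list means of 9.03 to 10.70 in IkL/L arrays and 7.91 to 9.51 in WT arrays, and between stages 2 were higher and 4 lower in CDPs. Of 12 cell cycle genes, 7 were lower in IkL/L cells and 7 lower in CDPs, with list means of 7.53 to 7.95 in IkL/L CDPs and 8.52 to 9.21 in all other groups. Of 11 macrophage genes, which are known to go with high Nr1h3, Abca1 and Abcg1, 1 was higher in IkL/L cells (Cd14, at 1.32) and 1 in CDPs (Cd68, at 0.58), with list means of 7.14 to 8.11 in IkL/L arrays and 6.28 to 7.64 in WT arrays. In IkL/L CDPs the macrophage list mean was 8.0 and 7.14 in arrays 1 and 2 with vehicle and 8.11 and 7.15 with GSI, the arrays in which Abca1 read 5.98, 4.85, 5.73 and 4.74. In these arrays Nr1h3 was higher in array 1 than in array 2 with either treatment, and Abcg1 only with GSI. Of 7 genes of MDPs and CDPs themselves, 0 differed between genotypes, 1 (Flt3) was higher and 1 (Irf8) lower in CDPs, and Cx3cr1 was 1 of 7 to change with GSI, by −1.34 (adjusted p = 0.0199, limma). All 6 plasmacytoid dendritic cell genes, among them Siglech and Spib, were higher in CDPs, and 0 of 6 differed between genotypes. The lists of B cell (7), T and NK cell (7) and erythroid (4) genes had 0 calls between genotypes, and Nkg7 was their 1 call between stages, lower in CDPs. Of 7 Notch target genes, 0 changed with GSI on average at an adjusted p under 0.05, or at an unadjusted one (limma), beside 0.306% and 11.4% of all genes. Their list means were only 4.38 to 4.66, near the array medians of 4.52 to 4.65, so a fall with GSI could go unseen. Whether they were above background was not tested. The part of these markers in the differences of the cholesterol genes was not tested.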

How the data were processed

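RNA of 16 samples was labelled from 0.69 to 20 ng and hybridised to Affymetrix Mouse Gene ST 1.0 arrays. The authors ran RMA (Affymetrix Expression Console 1.4.1, per the labels) and deposited log2 values for 28188 probe sets (2.55 to 13.46, not centred). RMA corrects background, equalises array distributions and compresses small differences at low signal. Probe detection calls were not used here, the genome build of the probes being not given in the sources used here. From these values, 21789 probe sets with 1 gene symbol gave 19938 genes, the highest probe set by mean standing for a gene; 1621 had several symbols and 4778 none. R 4.3.3 and limma 3.58.1 fitted 8 group means to all arrays, with residual degrees of freedom of 8, empirical Bayes moderation, 2-sided tests and Benjamini-Hochberg adjustment over all genes (threshold 0.05). The code was tested on simulated data. Groups followed GEO titles. The members and lists were chosen with earlier results of these data known. Every measured member is named, with all array values for those past the threshold in any comparison, and up to 4 genes past the threshold from each other list. The differences between array 1 and array 2 of a group, over all genes, correlated above 0.1 in 17 of 28 pairs of groups (−0.254 to 0.658). The labels do not say what a replicate number marks. Numbers were not treated as pairs in the main fit, and a replicate block was an alternative. Alternatives were a replicate block, a low-signal filter, centring, quantile normalization, probe set means, trend and robust moderation, compared arrays only and each array left out. Promoters are from RefSeq (GRCm38.p6).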

Additional observations from a re-analysis of the deposited data

Results flagged for a closer look

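The IkL/L effect on Abcg1, an exporter of cholesterol, differed between CDPs and MDPs with treatments averaged, and did not pass in the planned comparison. Averaged over vehicle and GSI, the IkL/L minus WT difference was 0.69 higher on the log2 scale in CDPs than in MDPs (SE 0.12, adjusted p = 0.0295, limma, a comparison chosen after seeing the data). All 4 IkL/L CDP arrays lay above all 4 WT CDP arrays, at 6.63 to 6.79 against 5.90 to 6.36, and the MDP values of both genotypes ran from 5.42 to 5.78. With vehicle alone, the planned comparison, the difference was 0.90 (SE 0.17, adjusted p = 0.156, limma). The averaged difference did not pass with trend and robust moderation. The adjusted p of the averaged difference was between 0.0138 and 0.105 when each array was left out. Genes of mature dendritic cells were higher in the same IkL/L CDP arrays, and their part in this difference was not tested.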

How the results depend on the processing

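The 22 values of members that passed a test were computed again under each alternative, and 0 changed sign. With each array centred on its median gene, 5 members in place of 8 were higher in IkL/L cells on average, 1 in place of 4 in GSI-treated CDPs, and 1 in place of 2 was lower in CDPs than in MDPs; 7 of 22 values lost their call. With only the arrays of the groups compared, the calls higher in IkL/L cells went to 0 in vehicle-treated and to 0 in GSI-treated CDPs, and the calls between stages in IkL/L cells went to 1 with vehicle and to 2 higher and 1 lower with GSI. With a replicate block, 2 members were higher in vehicle-treated IkL/L CDPs, 4 were lower in CDPs on average, and the members called between genotypes on average were 10, while Abcg1 in GSI-treated CDPs and Mvk between stages lost their call (adjusted p = 0.0513 and 0.0534, limma); over all genes the GSI average went from 61 to 176 calls with the block, and it changed no other member count by over 1.5 times. The low-signal filter, which left 9969 genes and dropped Abca1, gave 2 calls in vehicle-treated CDPs, as did trend and robust moderation, which gave 0 for the difference between stages of the IkL/L effect on average. The cause of these changes was not tested.

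With each array left out in turn, where a lone array is assumed to vary like the other groups, the counts ranged as follows. Between genotypes they were 3 to 8 higher on average, 0 to 1 in GSI-treated MDPs, 0 to 2 in vehicle-treated CDPs and 0 to 5 in GSI-treated CDPs. Between stages they were 2 to 5 higher and 1 to 4 lower on average, 0 to 1 higher and 0 to 1 lower in WT cells with GSI, 1 to 2 higher in IkL/L cells with vehicle, and 0 to 1 lower in IkL/L cells with GSI. The difference between stages of the IkL/L effect on average had 0 to 1. The stage count higher on average reached 5 without array 2 of vehicle-treated WT CDPs. Without both groups of vehicle-treated MDPs, an alternative chosen after seeing the data, 7 members remained higher in IkL/L cells, Cyp51 losing its call. With GSI 0 members passed under every alternative run. With 2 arrays a group, only changes that are large beside the spread between arrays can pass.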
